A study of Mus musculus with 81 samples.

Results

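The genes described here code for the proteasome and its regulators, measured in neutrophils of inbred mouse strains. They were taken by a rule on their names, set with earlier results of these data known. Every probe set with a single gene symbol beginning with Psma, Psmb, Psmc, Psmd, Psme, Psmf or Psmg and then a number was taken. Where a gene had more than 1 such probe set the brightest stood for it. This gave 50 genes from 56 probe sets, out of 19752 single-symbol genes. Of the 50, Psmc3ip and Psme3ip1 are partner proteins named after a subunit and are not subunits themselves. A further probe set shared by Psme2b and Psme2 had 2 symbols and was left out.

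Neutrophils were sorted from bone marrow as cells positive for CD11b and Ly6G, from male mice aged 6 weeks, and each of the 81 Affymetrix ST1.0 arrays was a biological replicate from sorted cells of pooled, untreated mice. Titles placed the arrays in 40 strain groups. The wild-derived strains, by common knowledge of the names, were CAST/EiJ, WSB/EiJ, PWD/PHJ, MSM/Ms and JF1/Ms, and the other 35 groups were classical. The classical groups were 129S1/SvImJ, A/J, AKR/J, C3H/HeJ, C57BL/10J, C57BLKS/J(662), C57L/J (668), CBA/CaJ, CBA/J, CE/J, DDY/JclSidSeyFrkJ, FVB/NJ, KK.Cg-Ay/J (which by its name carries the yellow allele of agouti), LGJ, LP/J(676), MA/MyJ, MRL/MpJ, NOD/ShiLtJ, NON/ShiLtJ, NOR/LtJ, NZB/BINJ, NZW/LacJ, P/J, PL/J, RIIIS/J, SEA/GnJ, SJL/J, SM/J, SWR/J, C57BL/6J and 5 groups whose title and genetic background label name different strains. Those 5 go by their titles, as titled DBA2, titled C57BR, titled Balb, titled BTBR and titled BPL. There were 5 arrays of C57BL/6J, 1 each of SWR/J and FVB/NJ, and 2 of every other group.

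The proteasome is the protease that degrades ubiquitin-tagged proteins. Its barrel, the 20S core, is built from rings of alpha subunits, which form the gate, and rings of beta subunits, of which Psmb5, Psmb6 and Psmb7 cut peptide bonds. In immune cells and after interferon exposure, Psmb8, Psmb9 and Psmb10 can take their places to form the immunoproteasome, which favours peptides suited to class I antigen presentation. The 19S cap recognises and unfolds substrates, the PA28 and PA200 proteins are alternative caps, and Psmf1 codes for PI31, known as a proteasome inhibitor in test-tube assays.

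All values are log2 intensities or differences of them. The arrays were alike in overall brightness, with medians between 6.60 and 6.84, and the sorted cells carried their defining markers: Itgam, which codes for CD11b, had strain means from 12.45 to 12.80 and Ly6g from 13.44 to 13.88. Markers of other blood cells were lower and varied more between strains. The mean over 9 monocyte and macrophage markers ran from 6.78 in FVB/NJ to 7.75 in titled BTBR, and that over 8 B-cell markers from 5.80 to 6.34. That over 4 megakaryocyte markers ran from 6.31 in SEA/GnJ to 7.86 in NOD/ShiLtJ, with 7.63 in SWR/J. The mean over 16 cell cycle genes, which mark no cell type, lay between 6.88 (NOR/LtJ) and 9.50 (NON/ShiLtJ). The NZB/BINJ arrays stood apart, with 44.6% of all probe sets called against C57BL/6J where the next strain, C57L/J (668), had 18.4%. Fewer cells of a type and less RNA per cell cannot be told apart in such sorted pools, and a lower value in a strain other than C57BL/6J can also come from a sequence difference under a probe.

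Promoters are shown for the genes with the largest spread that move together, Psma2, Psmb4 and Psmd6, and for the neighbouring immunoproteasome genes Psmb8 and Psmb9. Each line gives the 250 bases before the transcription start on the gene's strand, from RefSeq on GRCm38.p6, and capitals mark matches to 3 short motifs.
Psma2, chr13:14612992-14613241, plus strand: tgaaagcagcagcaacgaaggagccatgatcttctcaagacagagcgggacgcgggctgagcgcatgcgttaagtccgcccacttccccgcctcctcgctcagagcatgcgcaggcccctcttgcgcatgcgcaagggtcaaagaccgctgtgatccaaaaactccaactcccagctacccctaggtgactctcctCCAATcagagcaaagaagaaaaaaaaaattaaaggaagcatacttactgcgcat
Psmb4, chr3:94886959-94887208, minus strand: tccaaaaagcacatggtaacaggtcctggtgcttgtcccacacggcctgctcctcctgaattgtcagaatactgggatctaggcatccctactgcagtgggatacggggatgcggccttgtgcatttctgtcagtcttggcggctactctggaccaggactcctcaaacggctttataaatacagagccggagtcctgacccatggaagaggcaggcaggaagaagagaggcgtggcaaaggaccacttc
Psmd6, chr14:14120946-14121195, minus strand: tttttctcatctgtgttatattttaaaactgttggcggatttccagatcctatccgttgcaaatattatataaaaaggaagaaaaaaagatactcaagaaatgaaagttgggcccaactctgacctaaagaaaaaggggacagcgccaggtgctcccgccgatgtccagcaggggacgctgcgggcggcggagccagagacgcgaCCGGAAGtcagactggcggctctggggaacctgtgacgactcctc
Psmb8, chr17:34197945-34198194, plus strand: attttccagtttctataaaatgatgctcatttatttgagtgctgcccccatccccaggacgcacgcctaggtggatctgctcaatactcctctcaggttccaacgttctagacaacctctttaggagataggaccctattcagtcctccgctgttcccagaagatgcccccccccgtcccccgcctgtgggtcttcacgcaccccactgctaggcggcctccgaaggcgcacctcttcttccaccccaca
Psmb9, chr17:34187331-34187580, minus strand: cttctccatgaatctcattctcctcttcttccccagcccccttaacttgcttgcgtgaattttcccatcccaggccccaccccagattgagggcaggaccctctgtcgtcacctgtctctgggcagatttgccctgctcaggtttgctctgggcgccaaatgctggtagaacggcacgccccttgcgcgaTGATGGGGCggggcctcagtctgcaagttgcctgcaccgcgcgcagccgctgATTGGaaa
The motifs, searched on both strands, were ETS (CCGGAAG), ARE (TGANNNNGC, bound by the leucine-zipper factors Nfe2l1 and Nfe2l2) and the CCAAT box (CCAAT). The match in Psma2 is the CCAAT box and in Psmd6 ETS, while Psmb9 has ARE and, nearest its start, the CCAAT box read on the other strand. A promoter was given for 42 of the 50 genes. The ETS letters stood in 12 of these 42 (28.6%), among them Psmd6, Psmc6 and Psmd2, and in 7.05% of all 27025 promoters. The ARE letters stood in 35.7% of the 42 and 35.1% of all, and the CCAAT letters in 35.7% and 34.5%. Psmb4 and Psmb8 had none of the 3.

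Strain differences were tested first. By the moderated F test of limma over the 40 groups, 43 of the 50 genes were called at an adjusted p under 0.05, where 56.0% of all 24922 probe sets were called. Most of these genes are well above the dim end of the array: 42 have a mean of at least 7, of which 38 were called, and among all probe sets that bright 84.8% were. A called gene whose highest strain mean was 2-fold or more above its lowest is said here to have a 2-fold range, and this held for 22 of the 50 (24.5% of all probe sets) and for 21 of the 42 bright genes (42.5% of bright probe sets). The median SD of strain means was 0.22 over the 50 genes, 0.14 over all probe sets and 0.20 over the bright ones. FVB/NJ, a single array, was the highest strain for 11 of the 42 bright genes, and without the groups of 1 array 18 genes had the 2-fold range. NZB/BINJ was the lowest strain for 10 of the 42, and without it 41 genes were called and 19 with the 2-fold range.

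**Figure D1:**
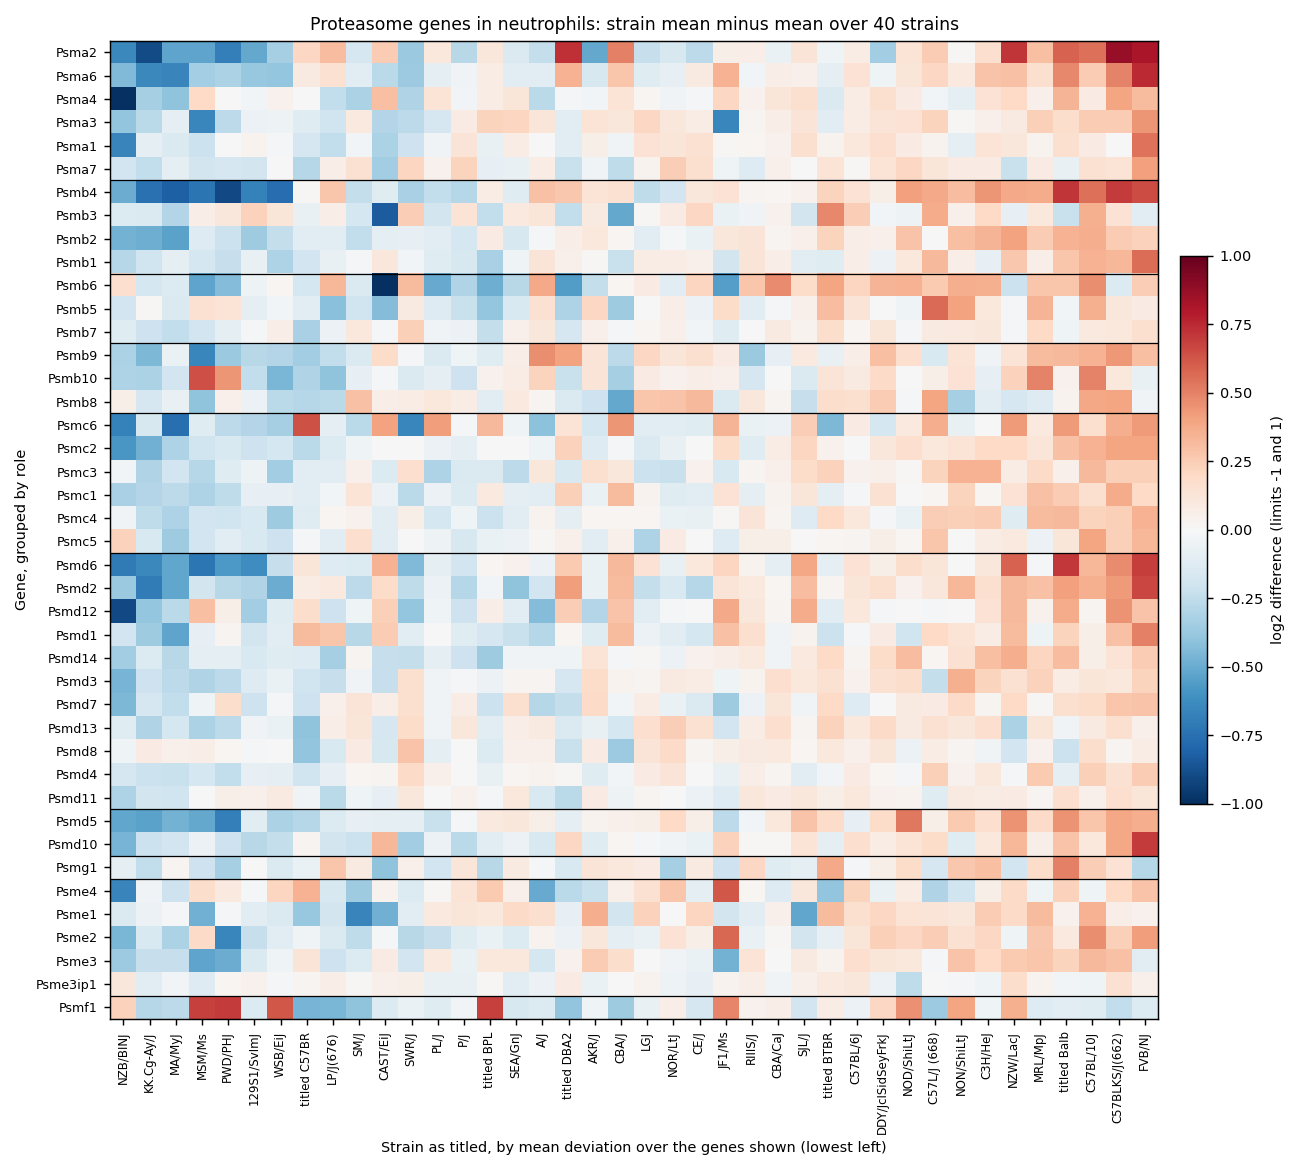
Strain means of the 42 bright proteasome genes (rows, grouped by role from the alpha ring at the top to the inhibitor Psmf1 at the bottom) in 40 strains (columns), as log2 difference from the mean over strains. Most rows are blue at the left end, from NZB/BINJ, KK.Cg-Ay/J and MA/MyJ, and red at the right end, at C57BLKS/J(662) and FVB/NJ, while Psmf1 has its highest values in PWD/PHJ, MSM/Ms and titled BPL.

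Of the 7 alpha-ring genes, 6 were called and 5 of them with a 2-fold range. Psma2 had the largest spread of all 50, with an SD of 0.43 over strain means. It measured 9.65 and 10.17 in the arrays of C57BLKS/J(662) and 8.21 and 8.08 in those of KK.Cg-Ay/J, with a median strain mean of 9.08, a 3.40-fold range (adjusted p = 1.6e-05). The ends of its range were well separated, while strains in the middle of the order lay closer together than the SD of 0.32 between arrays of 1 strain. Psma6 measured 10.63 in the single FVB/NJ array and 9.13 and 9.33 in MA/MyJ (adjusted p = 6.5e-05). Psma4 was highest in C57BLKS/J(662), at 8.66 and 8.84, and lowest in NZB/BINJ, at 6.85 and 7.65, and its range narrowed to 0.80 when NZB/BINJ was left out. Psma7 was the alpha-ring gene not called (adjusted p = 0.43). Psma3 had 3 probe sets, which followed each other across strains with r of 0.98 and 1.00 to the one used, and whether they measure 1 gene or near-identical copies is uncertain.

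All 4 beta-ring genes without a catalytic site were called. Psmb4 measured 10.44 and 10.68 in titled Balb and 9.08 and 8.81 in PWD/PHJ, with a median strain mean of 9.91 and a 3.07-fold range (adjusted p = 4.3e-06). Psmb3, with a mean of 12.01, had 11.15 and 11.21 in CAST/EiJ, below all other strain means, of which the next was 11.50 in CBA/J. Psmb1 and Psmb2 had ranges below 2-fold.

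The constitutive catalytic genes differed from each other in how much they varied. Psmb6, which codes for the caspase-like site, measured 8.89 and 8.66 in CBA/CaJ and 7.19 and 7.43 in CAST/EiJ, around a median of 8.36 (2.76-fold, adjusted p = 2.5e-07). CAST/EiJ lay below the next strain, titled DBA2, by more than the spread of its own arrays. Psmb5, the chymotrypsin-like site, measured 10.70 and 10.86 in C57L/J (668) and 9.80 and 9.76 in CAST/EiJ, a range just under 2-fold (adjusted p = 3.3e-05). Psmb7, the trypsin-like site, was not called (adjusted p = 0.12), with strain means between 8.50 and 9.06.

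All 3 immunoproteasome genes were called. Psmb9 measured 9.59 and 9.65 in A/J and 8.59 and 8.41 in MSM/Ms, around a median of 9.18 (2.17-fold, adjusted p = 1.0e-07). Psmb10 measured 8.53 and 8.49 in MSM/Ms and 7.36 and 7.46 in WSB/EiJ, around a median of 7.88 (2.145-fold, adjusted p = 0.00076). MSM/Ms was lowest for Psmb9 and highest for Psmb10. Psmb8 measured 8.42 and 8.44 in C57L/J (668) and 7.38 and 7.67 in CBA/J, around a median of 8.06 (1.87-fold, adjusted p = 0.00018). The 5 C57BL/6J arrays alone ran from 7.76 to 8.46 for Psmb8 and from 7.49 to 8.48 for Psmb10, so neighbouring strains in either order do not differ beyond the spread within 1 strain.

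Psmb8 and Psmb9 lie next to each other in the class II region of the histocompatibility complex, with the peptide transporter genes Tap1 and Tap2 between and beside them, while Psmb10 lies elsewhere. Over the 40 strain means Psmb8 and Psmb9 had r = 0.37 (rho 0.27, and r = 0.24 without the 2 most extreme strains), Psmb8 and Psmb10 r = 0.24 (rho 0.27, 0.37 without 2 strains), and Psmb9 and Psmb10 r = 0.30 (rho 0.46, 0.53 without 2 strains). Within the 35 classical strains the same pairs had r of 0.28, 0.41 and 0.69, and between arrays of the same strain 0.54, 0.59 and 0.68. Here and below, the 2 most extreme strains are those farthest from the median of the first-named variable of a pair, whatever the second. The points share arrays and overall brightness. Psmb8 and Tap1 had r = 0.71 (rho 0.70, 0.66 without 2 strains). Tap1 was the gene most like Psmb8 among 8467 genes outside the family that were called and had a strain mean of at least 7. Psmb8 and Tap2 had r = 0.24 (rho 0.18, 0.30 without 2 strains). Psmb9 was most like Ywhag (r = 0.85), Calm3, Pfdn5, Tmem9b and Ppp1ca, with Tap1 at r = 0.41 and Tap2 at r = 0.53. Psmb10 was most like Fbxl8 (r = 0.80), Txn2, Hax1, Mon1a and Ndufa2. After Tap1, Psmb8 was most like Drap1 and Lrrc8c (r = 0.62 each), Tomm7 and Mapkapk5. Psma2 was most like Cct4 (r = 0.91), Ppp2ca, Ppp6c, Ndufb6 and Rab22a.

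All 6 ATPase genes of the 19S cap, whose products unfold substrates, were called, but 1 with a 2-fold range. This was Psmc6, at 9.52 and 9.43 in titled C57BR and 8.10 and 8.07 in MA/MyJ (2.62-fold, adjusted p = 0.0014). Of the 11 other 19S subunit genes, 10 were called and 4 with a 2-fold range. Psmd6 measured 9.39 and 8.94 in titled Balb and 8.25 and 7.22 in MSM/Ms (2.69-fold, adjusted p = 2.1e-05). Its MSM/Ms arrays differed from each other by more than the SD of strain means, 0.36. Psmd2, a scaffold subunit, measured 10.42 in the single FVB/NJ array and 9.16 and 8.94 in KK.Cg-Ay/J (2.59-fold, adjusted p = 1.2e-05). Psmd12 measured 6.68 and 7.87 in NZB/BINJ, arrays that stood far apart, and its range narrowed to 0.88 without that strain. Psmd4, a ubiquitin receptor, was not called (adjusted p = 0.073).

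Among the assembly chaperones, Psmd5 and Psmd10 of the 19S base were called with a 2-fold range and Psmd9 was not. Psmd5 measured 9.11 and 8.94 in NOD/ShiLtJ and 7.89 and 7.74 in PWD/PHJ (2.31-fold, adjusted p = 8.2e-07). Of the 20S chaperones Psmg1 and Psmg2 were called and Psmg3 and Psmg4 were not, 3 of these 4 with means below 7. The activators Psme1 and Psme2, which form PA28 in interferon-exposed cells, were called with 2-fold ranges, Psme1 with strain means of 10.31 in AKR/J and 9.28 in SM/J (adjusted p = 2.8e-07) and Psme2 with 10.80 in JF1/Ms and 9.57 in PWD/PHJ (adjusted p = 8.5e-07). Psme4, the PA200 gene, was called with a 2-fold range too. Psmf1 had the largest share of variance between strains, 79.0%, and measured 9.09 and 9.20 in PWD/PHJ and 7.84 and 8.13 in titled C57BR (2.23-fold, adjusted p = 4.9e-11). The tissue-restricted core genes Psma8 and Psmb11, of testis and thymus, had means of 5.08 and 5.91.

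Many of the genes moved together across strains. The first component of the 42 bright genes held 47.3% of their variance over strain means, with Psmb4, Psma2, Psmd6, Psma6 and Psmd2 weighing most and Psmf1 and Psmd8 weighing slightly the other way. Psmb4 had r of 0.82 with Psma2, 0.83 with Psmd6 and 0.89 with Psma6 over 40 strains, and these stayed between 0.80 and 0.88 without the 2 most extreme strains. Between arrays of the same strain the same pairs had r of 0.74, 0.79 and 0.88, so they moved together within strains as well. The median r between any 2 of the 42 was 0.36. Between any 2 of all genes with a mean of at least 7, whatever their name, it was 0.03.

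The mean deviation of the 42 genes from their averages was lowest in NZB/BINJ at -0.32, KK.Cg-Ay/J at -0.29 and MA/MyJ at -0.27, and highest in FVB/NJ at 0.28, C57BLKS/J(662) at 0.26 and C57BL/10J at 0.24. In KK.Cg-Ay/J and MA/MyJ 40 of the 42 genes each lay below their median over strains, and in C57BL/10J 39 lay above it. All bright genes together deviated by -0.21 in NZB/BINJ, by -0.08 in KK.Cg-Ay/J and by -0.05 in MA/MyJ. At the high end they deviated by 0.07 in FVB/NJ, by 0.05 in C57BLKS/J(662) and by 0.03 in C57BL/10J. The mean deviation followed the array's mean over bright probe sets, with r = 0.81 over 40 strains (rho 0.83, 0.76 without 2 strains), and ran against the median of all probe sets, with r = -0.60 (rho -0.55, -0.47 without 2 strains, -0.52 without NZB/BINJ). With the cell cycle list the mean deviation had r = 0.44 and with the interferon-stimulated list 0.28. The part of array brightness or cell cycle genes in these levels was not tested.

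**Figure D2:**
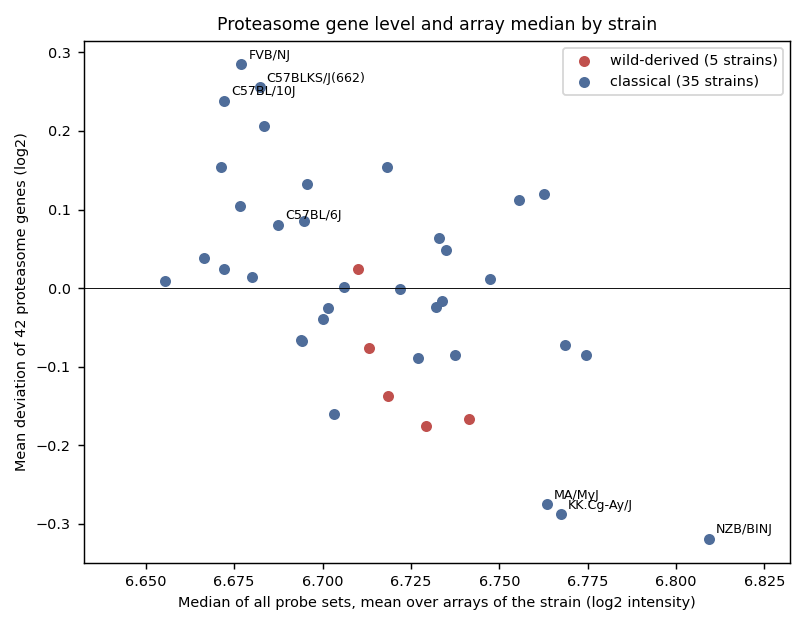
Mean log2 deviation of the 42 bright proteasome genes (vertical) against the median log2 intensity of all probe sets (horizontal), 1 point per strain, wild-derived in red and classical in blue. NZB/BINJ, at a deviation of -0.32, has the highest array median, and FVB/NJ, C57BLKS/J(662) and C57BL/10J sit at the upper left.

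The comparison of wild-derived with classical strains asks whether these genes differ between strains so classed. Each strain counted as independent, and kinship among strains was not modelled. With the strain as the replicate, 1 of the 50 genes was higher in wild-derived strains (6.64% of all probe sets were, and 7.92% of bright ones) and 8 were lower (5.55% of all, and 10.8% of bright ones). Of the 50 differences 38 were below 0, with a median of -0.13. Over all probe sets 39.9% were below 0 with a median of 0.03, and over bright ones 49.8% with a median near 0. Without NZB/BINJ 1 gene was higher and 9 were lower. The list level of cell cycle genes lay between 7.08 and 7.93 in wild-derived strains, inside the classical range of 6.88 to 9.50. Their median difference was -0.68, with 1 of 16 genes called lower, and the list level itself was not tested. The interferon-stimulated genes had a median difference of -0.50, with 4 of 16 called lower, and the part of either list in the proteasome differences was not tested.

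The higher gene was Psmf1, the gene of the inhibitor PI31. Its strain means were 8.31 in CAST/EiJ, 8.94 in JF1/Ms, 9.13 in MSM/Ms, 9.14 in PWD/PHJ and 9.07 in WSB/EiJ, against a classical range from 7.98 to 9.13 with a median of 8.33. Of the 5 wild-derived strains 4 lay above that median and CAST/EiJ just below it, and the groups overlapped. The difference was 0.54 ± 0.13 (SE, adjusted p = 0.0031).

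The lower genes came from the core, the 19S cap, the chaperones and an activator. Psmb6 had strain means of 7.31 in CAST/EiJ, 7.76 in JF1/Ms, 7.77 in MSM/Ms, 7.87 in PWD/PHJ and 8.32 in WSB/EiJ, against a classical range from 7.75 to 8.77 with a median of 8.49, a difference of -0.57 ± 0.14 (adjusted p = 0.0050). All 5 were below the classical median. Psma3 had 8.61, 8.25, 8.25, 8.64 and 8.85 in the same order, against 8.51 to 9.34 with a median of 8.99 in classical strains, a difference of -0.43 ± 0.09 (adjusted p = 0.00062). Its other probe sets differed by -0.39 and -0.43. Psma5 was not called with the probe set used (-0.23, adjusted p = 0.093), but its dimmer probe set was called lower (-0.34, adjusted p = 0.039). The chaperone Psmd5 differed by -0.43 ± 0.12 (adjusted p = 0.013), the activator Psme3, which forms PA28 gamma in the nucleus, by -0.33 ± 0.09 (adjusted p = 0.011), the chaperone Psmg1 by -0.30 ± 0.09 (adjusted p = 0.024), Psmd13 by -0.23 ± 0.07 (adjusted p = 0.034) and Psmd9 by -0.16 ± 0.05 (adjusted p = 0.023).

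Psmb4 differed by -0.54 ± 0.18 (adjusted p = 0.047), with 9.73, 9.99, 9.12, 8.94 and 9.08 in the 5 wild-derived strains and a classical median of 9.95. The call was lost at a common array median (adjusted p = 0.0555), and 1 wild-derived strain, JF1/Ms, lay above the classical median. Without MSM/Ms or without PWD/PHJ 3 genes were called lower, and without CAST/EiJ or without JF1/Ms 5 were. Psmf1, Psma3 and Psmb6 kept their calls whichever of the 5 wild-derived strains was left out, and strains were not left out in pairs. Psmd13 lost its call in 4 of the 5 cases, Psmb4, Psmg1, Psmd9 and Psme3 in 3 and Psmd5 in 2, with adjusted p up to 0.197.

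None of the immunoproteasome genes passed this test. Psmb8 differed by -0.16 ± 0.10 (adjusted p = 0.33), Psmb9 by -0.24 ± 0.12 (adjusted p = 0.20) and Psmb10 by 0.15 ± 0.11 (adjusted p = 0.42). Within the wild-derived strains Psmb10 spanned 7.41 in WSB/EiJ to 8.51 in MSM/Ms, with an SD of 0.43 over the 5 strains and of 0.21 over the classical ones. Psme1 differed by -0.30 ± 0.11 (adjusted p = 0.061) and Psme2 by 0.00 ± 0.11 (adjusted p = 0.99). The probe set shared by Psme2b and Psme2 had r = 0.65 with the Psme2 one and was lower in wild-derived strains, by -0.55 (adjusted p = 0.027), so the probe sets reading Psme2 disagree.

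**Figure D3:**
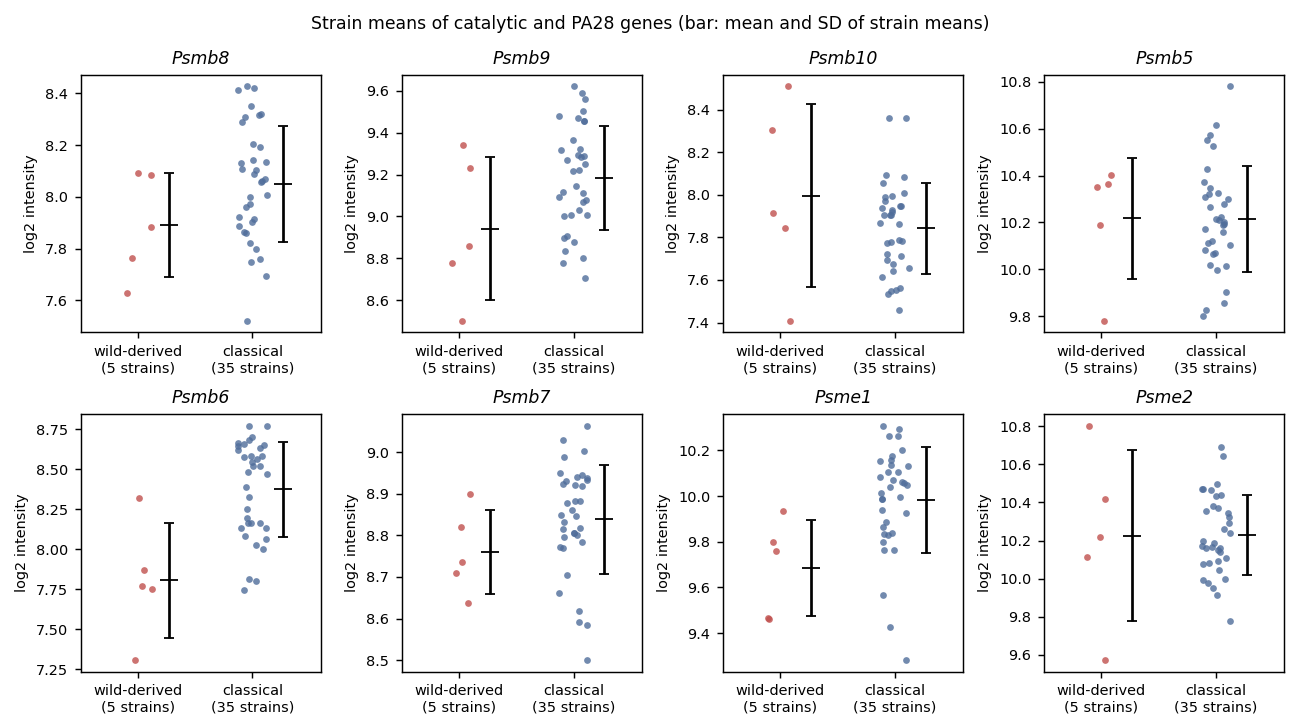
Strain means (points, log2 intensity) of the immunoproteasome genes Psmb8, Psmb9 and Psmb10, the constitutive catalytic genes Psmb5, Psmb6 and Psmb7 and the PA28 genes Psme1 and Psme2, in wild-derived strains at the left of each panel and classical strains at the right, with the mean and SD of strain means as a bar. The wild-derived points of Psmb6 sit low, with CAST/EiJ at 7.31, and those of Psmb10 are spread from 7.41 to 8.51.

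**Figure D4:**
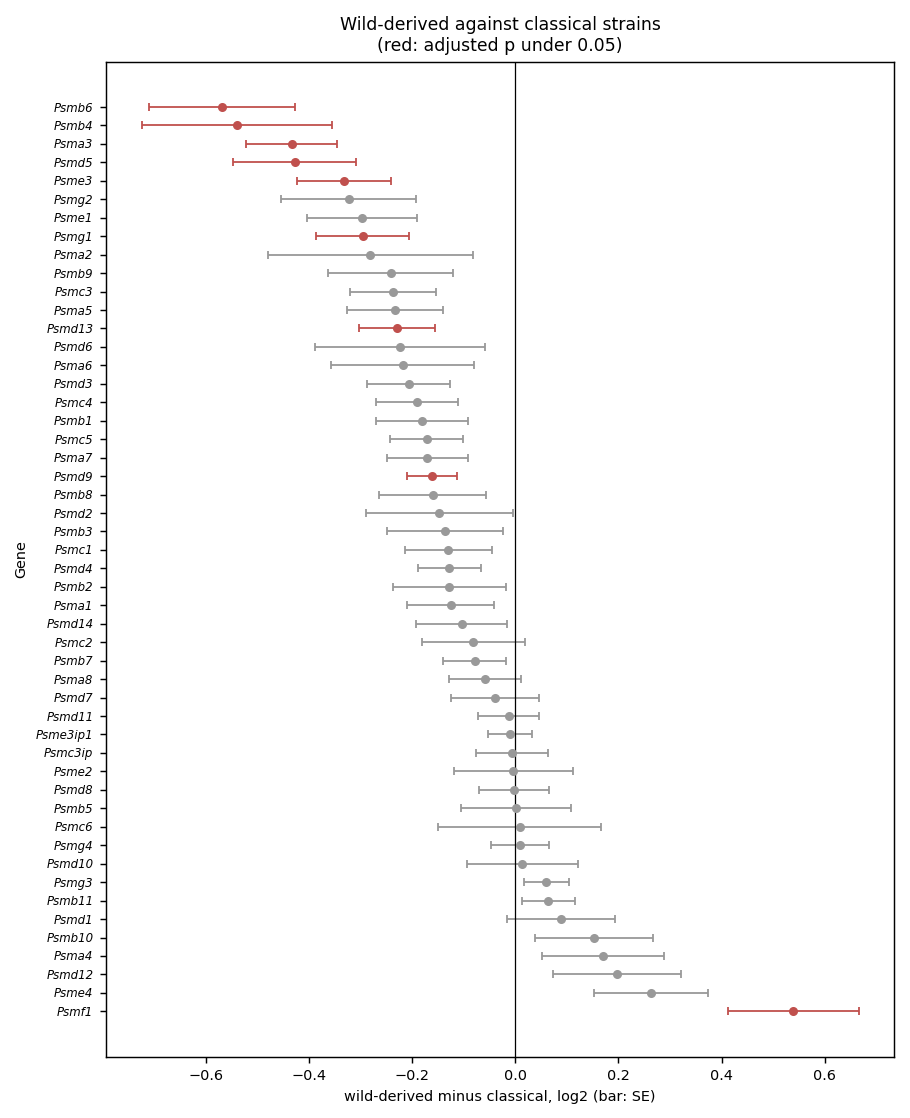
Difference of wild-derived minus classical strains (log2, bar: SE) for all 50 genes, ordered by size, with called genes in red. Psmb6 at -0.57 lies at the top and Psmf1 at 0.54 at the bottom, and 38 of the 50 points lie left of 0.

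The 50 genes were compared in 39 strains against C57BL/6J, whose 5 arrays serve every one of these comparisons. Of these combinations of gene and strain, 6 passed with a difference of at least 1. This was a smaller share than the 1.62% of all combinations of probe set and strain. CAST/EiJ had 11.15 and 11.21 for Psmb3, against 12.06, 12.33, 12.17, 12.36 and 12.39 in C57BL/6J, a difference of -1.08 ± 0.13 (SE, adjusted p = 7.6e-09). For Psmb6 it had 7.19 and 7.43, against 8.23, 8.62, 8.38, 8.71 and 8.67, a difference of -1.21 ± 0.18 (adjusted p = 7.0e-07). In both genes no CAST/EiJ array reached any C57BL/6J array.

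NON/ShiLtJ had 6.53 and 6.41 for Psmg2, a dim gene, against 5.19 to 5.56 in C57BL/6J with a median of 5.42, a difference of 1.06 ± 0.14 (adjusted p = 5.2e-08). The cell cycle list level was highest of all strains in NON/ShiLtJ, at 9.50. It was 7.20 in C57BL/6J, near the lowest level of 6.88 in NOR/LtJ, and its part in these differences was not tested. PWD/PHJ had 9.08 and 8.81 for Psmb4, against 9.79 to 10.19 with a median of 9.97, a difference of -1.05 ± 0.24 (adjusted p = 0.00089). The groups did not overlap, but the call was lost without the second PWD/PHJ array (-0.91, adjusted p = 0.061). NZB/BINJ had the lower Psma4, by -1.18 ± 0.14 (adjusted p = 1.1e-08), and Psmd12, by -1.01 ± 0.18 (adjusted p = 2.6e-05). Without its first array the differences were -0.78 and -0.42, the second no longer called (adjusted p = 0.16).

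**Figure D5:**
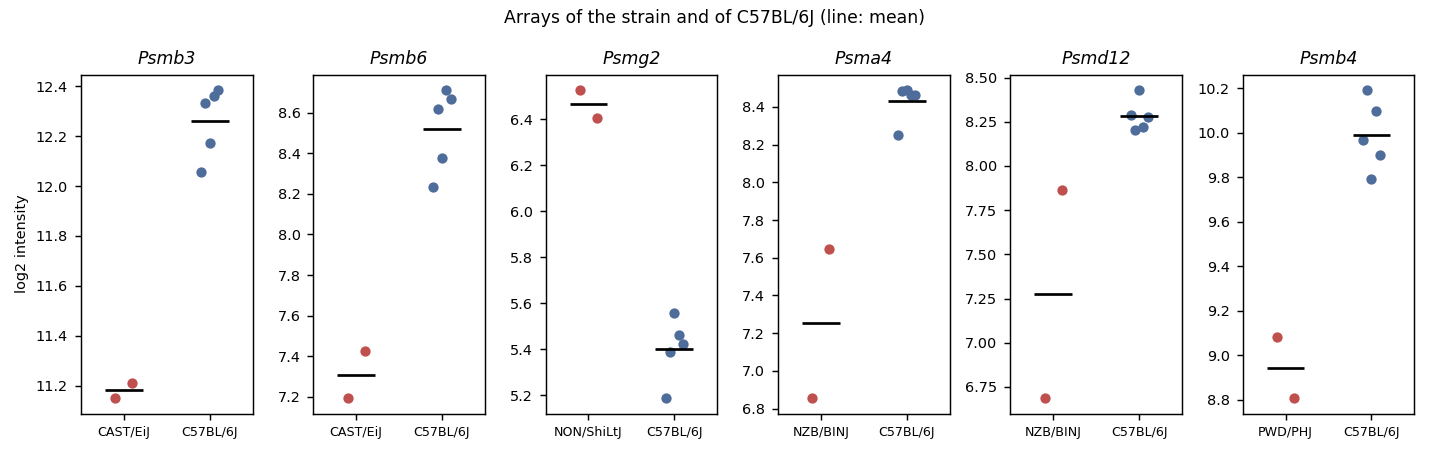
Log2 intensity of single arrays (points) in the strain at the left of each panel and in C57BL/6J at the right, for the 6 combinations that differed by at least 1, with the mean as a line. The 2 NZB/BINJ arrays of Psmd12 are far apart, at 6.68 and 7.87, while the 2 CAST/EiJ arrays of Psmb3 nearly coincide.

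At any size of difference, 27 of the 50 genes were called in NZB/BINJ (1 higher and 26 lower, beside 44.6% of all probe sets). There were 16 in MSM/Ms (18.0% of all probe sets), 15 in MA/MyJ (8.69%) and 13 in KK.Cg-Ay/J (11.5%). Over the 39 strains 10.0% of all combinations of probe set and strain were called, and the immunoproteasome genes were called in a few strains each. Psmb8 was lower in CBA/J (-0.67), MSM/Ms (-0.56), NON/ShiLtJ (-0.50) and LP/J(676) (-0.43), with adjusted p between 0.00095 and 0.038. Psmb9 was lower in MSM/Ms (-0.72), KK.Cg-Ay/J (-0.52), RIIIS/J (-0.44), PWD/PHJ (-0.44) and NZB/BINJ (-0.39), and higher in A/J (0.40), with adjusted p between 3.4e-05 and 0.041. Psmb10 was higher in MSM/Ms (0.56) and lower in WSB/EiJ (-0.54) and LP/J(676) (-0.49), with adjusted p between 0.015 and 0.042.

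Pairs of related strains were compared in the same model. NZB/BINJ had 28 genes lower than NZW/LacJ and none higher, where 45.5% of all probe sets were called. Psma2 measured 8.29 and 8.51 in NZB/BINJ, against 9.89 and 9.62 in NZW/LacJ, a difference of -1.36 ± 0.30 (adjusted p = 0.00040). Psma4 differed by -1.30, Psmd6 by -1.30, Psmd12 by -1.23 and Psmc6 by -1.10. The median over all bright genes was -0.26, and that over the 50 genes -0.47. The count was 16 without the first NZB/BINJ array and 13 without the first NZW/LacJ array, so it depends on single arrays. The monocyte and macrophage list deviated by 0.46 in NZB/BINJ and 0.19 in NZW/LacJ, and the cell cycle list by -0.34 in NZB/BINJ and 0.46 in NZW/LacJ; their part was not tested.

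NOD/ShiLtJ and NOR/LtJ differed in 1 gene (5.56% of all probe sets): Psmg1 measured 7.32 and 7.15 in NOD/ShiLtJ, against 6.81 and 6.62 in NOR/LtJ, a difference of 0.52 ± 0.12 (adjusted p = 0.0035), lost without the first NOD/ShiLtJ or the second NOR/LtJ array. No gene was called in limma between C57BL/10J and C57BL/6J (2.65% of all probe sets, 11 genes at an unadjusted p under 0.05), between CBA/J and CBA/CaJ (1.71%, 7 genes) or between MRL/MpJ and LGJ (3.84%, 10 genes). Psmb8, at 7.52 in CBA/J and 8.06 in CBA/CaJ, did not pass (adjusted p = 0.13). The cell pools of these pairs differed in list levels. The cell cycle level was 8.58 in NOD/ShiLtJ and 6.88 in NOR/LtJ, and the megakaryocyte level 7.86 and 6.60. Cell cycle levels were 8.32 in C57BL/10J and 7.20 in C57BL/6J, 8.94 in CBA/J and 7.97 in CBA/CaJ, and 8.88 in MRL/MpJ and 7.48 in LGJ. The part of these lists was not tested.

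Genes that work with the proteasome were read from lists. Of 17 measured cofactors and regulators 15 were called among strains, 5 with a 2-fold range, and none was called between wild-derived and classical strains. Of all probe sets 56.0% were called among strains and 24.5% with a 2-fold range, and of bright ones 84.8% and 42.5%. Nfe2l2, a stress-response transcription factor, had the largest SD, 0.41, with 12.32 in FVB/NJ and 10.95 in A/J, and Usp14, a deubiquitinase of the 19S cap, had 7.99 in titled Balb and 6.53 in KK.Cg-Ay/J. Sem1, a small 19S subunit, had 10.46 in FVB/NJ and 9.08 in PWD/PHJ, and Akirin2, which carries proteasomes into the nucleus, 9.93 in JF1/Ms and 8.73 in LP/J(676). The mean deviation of the 42 genes and that of this list had r = 0.86 over 40 strains (0.81 without 2 strains, 0.83 without NZB/BINJ).

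Of 16 measured genes of class I peptide loading 12 were called, 7 with a 2-fold range, where 84.8% and 42.5% of bright probe sets were. In wild-derived strains 2 were higher, the peptidases Tpp2 (0.35, adjusted p = 0.044) and Npepps (0.33, adjusted p = 0.017), where 7.92% of bright probe sets were. Canx, a chaperone of class I chains, had 11.08 in NZW/LacJ and 9.48 in MSM/Ms. Tap1, a subunit of the peptide transporter, had 9.98 in DDY/JclSidSeyFrkJ and 8.91 in NZW/LacJ. The immunoproteasome genes' mean deviation had r = 0.53 with this list, 0.385 with the interferon-stimulated list and 0.205 with the interferon-gamma list, over 40 strains. Without the 2 most extreme strains these were 0.55, 0.34 and 0.06.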

How the data were processed

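The authors deposited 1 table holding a linear intensity for each probe set on each array. Per the submitters' processing notes it was made with Affymetrix Power Tools and RMA. Tool versions and genome build: not given in the sources used here. Deposited intensities were taken to log2 with no more scaling, and symbols came from GEO's platform annotation. The probes follow the C57BL/6J reference, so a variant under a probe can lower the intensity in other strains. The number of arrays limits the precision.

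limma 3.58.1 (lmFit and eBayes, under R 4.3.3) was fitted over all 24922 probe sets with Benjamini-Hochberg adjustment: a moderated F test over 40 groups, contrasts from the same model, and wild-derived against classical strains on strain means. Spread is pooled over groups, and a lone array is assumed to have the spread of the other groups. The fits were tested on simulated data. "Bright" means a mean log2 of at least 7. All 50 genes could be named, with values by strain for the catalytic, PA28 and largest-spread genes and for called genes by size. The members, lists and tests were chosen with earlier results of these data known. Alternatives changed scaling, variance prior, brightness filter, probe set choice, grouping and single arrays or strains. Leaving out NZB/BINJ was chosen after seeing the data.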

Additional observations from a re-analysis of the deposited data

Results flagged for a closer look

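Values lying apart from the rest of their group were looked for in the 5 C57BL/6J arrays and in the 5 wild-derived strain means of each gene, with Dixon's test at 95%. Of 100 such groups 11 were marked, where chance marks about 1 in 20. Replicate 1 of C57BL/6J accounted for 5 of the 6 marks in that strain. It was low for Psma4 (8.25, next 8.46), Psmd8 (9.96, next 10.27) and Psme1 (9.77, next 10.15), and high for Psmc6 (9.38, next 8.90) and Psmd9 (7.03, next 6.88). It was also the lowest of the 5 for Psmb8 at 7.76, Psmb9 at 8.93 and Psmb10 at 7.49, which did not pass this test. Replicate 4 was high for Psmd7 (7.79, next 7.48).

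Among the wild-derived strains, CAST/EiJ stood below the other 4 for Psmb3 (11.18, next 11.95), Psmd8 (10.06, next 10.22) and Psmf1 (8.31, next 8.94). JF1/Ms stood above for Psma6 (10.24, next 9.62), and PWD/PHJ below for the dim gene Psmg4 (6.43, next 6.52).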

How the results depend on the processing

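No called value changed sign in 61 results under up to 97 settings, while the uncalled wild-derived differences of Psmb5 and Psme2, near 0, did so under some. Of 2022 single-gene values 1978 kept their call, 37 lost it and 7 gained it. The number of genes called among strains stayed between 38 and 44 under the other settings. Under quantile normalization 3 combinations of gene and strain passed against C57BL/6J, 2 genes were called between NOD/ShiLtJ and NOR/LtJ, and 2 were higher in wild-derived strains. A model of all arrays took its error from the spread between arrays of a strain and left out that between strains. In it the wild-derived strains had 4 genes higher and 25 lower. Leaving out 1 wild-derived strain gave 3 to 7 lower genes. The pair CBA/J and CBA/CaJ gained 1 call under a trended and robust prior, 1 when probe sets with means below 7 were not tested and 1 under the replicate block, MRL/MpJ and LGJ 1 under that brightness filter, and C57BL/10J and C57BL/6J 1 under the block. Leaving out 1 array gave 0 to 2 calls for C57BL/10J, 0 to 1 for NOD/ShiLtJ and 13 to 30 for NZB/BINJ. Psmb4 lost its wild-derived call without the groups of conflicting labels (adjusted p = 0.075) and without MSM/Ms, PWD/PHJ or WSB/EiJ, and Psmd13 under quantile normalization (adjusted p = 0.066). Psmb7 was called among strains under quantile normalization (adjusted p = 0.026). Deviations of same-numbered arrays had a median r of 0.02 over 630 pairs of groups, with a range from -0.61 to 0.70 and 203 over 0.1. A median near 0 cannot show whether some groups shared a batch. With the replicate block 40 genes were called among strains. The cause of these changes was not tested.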

Other observations

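Within each array the inducible catalytic gene was set against its constitutive counterpart, and the difference was centred on its mean over 40 strains, so that the values describe change between strains and not the ratio of the transcripts. Psmb9 minus Psmb6 had the widest range, from -0.65 in RIIIS/J to 1.18 in CAST/EiJ, with an SD of 0.40 over strains and 0.23 between arrays of a strain. Psmb8 minus Psmb5 ran from -0.74 in NON/ShiLtJ to 0.50 in CAST/EiJ, and Psmb10 minus Psmb7 from -0.52 in WSB/EiJ to 0.84 in MSM/Ms. In CAST/EiJ the first of these values stands beside a Psmb6 level of 7.31, the lowest of all strains, and a Psmb9 level of 9.34.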
